A study of Homo sapiens with 4 samples.

Results

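The proteasome subunits are the genes of the proteasome, its regulators and its assembly factors. They were chosen as every entry of the deposited expression table whose symbol is PSMA to PSMG followed only by a number. This gave 47 of the 28412 genes in the table, of which 43 had a mean level high enough to be tested. To investigate what followed the loss of LDB1, a cofactor that LMO2 and other transcription factors use to bridge DNA elements, total RNA was sequenced from 4 libraries of human cells labelled NB4, an acute promyelocytic leukemia line. In 2 libraries the cells were controls carrying sh-NC, and in the other 2 LDB1 was knocked down with sh-LDB1 (called the controls and the knockdown). The shRNAs were delivered by lentivirus in a pLKO.1 vector according to the study's methods. One label field describes the controls as untreated, and the labels name neither the LDB1 shRNA that was sequenced nor separate cultures, so the p-values below measure only the spread between these libraries, which may be technical.

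The proteasome is the large protease that degrades ubiquitin-tagged proteins in the cytosol and nucleus. Its core particle is a stack of alpha and beta rings, in which the beta subunits PSMB5, PSMB6 and PSMB7 carry the cutting sites. The regulatory particle caps the core with a base, whose ring of PSMC ATPases unfolds the substrate, and a lid, which removes ubiquitin. Interferon and some blood cell types replace the cutting subunits with PSMB8, PSMB9 and PSMB10, which gives the immunoproteasome used for antigen presentation. PSME genes encode alternative activators, and PSMG genes encode chaperones of core assembly.

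All levels are given as deposited in FPKM, a count of fragments divided by gene length and by library depth. The gene length recovered from the steps of the values was, for most members, near that of all annotated exons together. For PSMA6 it was 6506 bases, against 1023 bases for its mRNA. Genes with many annotated exons therefore read low, and levels of different genes can be set side by side only roughly. LDB1 itself was at 135.1 and 120.1 FPKM in the controls and at 10.2 and 9.47 FPKM after knockdown. The depth by which the fragments had been divided, recovered from the steps of the table, was between 14746656 and 16182674 per library, and it includes the authors' scaling between libraries, so that it is near the number of reads but not equal to it. Libraries of one group had a correlation of 0.984 to 0.985 across genes and libraries of different groups one of 0.856 to 0.863. Of the defining promyelocyte markers, 6 of 8 were analysed here, with a summed level of 10.6 to 11.5 FPKM in the controls and 29.4 to 31.98 FPKM after knockdown. The largest part was LYZ, at 5.85 and 5.61 FPKM in the controls and 19.3 and 19.1 FPKM after knockdown. CEBPE went the other way, from 1.55 and 1.27 FPKM to 0.924 and 0.340 FPKM, and ELANE was at 0 in 3 libraries. All 8 erythroid markers were present instead, and their summed level was 3411 to 3438 FPKM in the controls and 302.9 to 318.5 FPKM after knockdown. These markers go against the label NB4, so the identity of the cells is in doubt, and the label is used here only as a name. T cell markers (2 of 3 in the table) summed to 20.1 to 23.3 FPKM in the controls and 43.0 to 46.3 FPKM after knockdown, nearly all of it CD3D, while B cell and fibroblast markers summed to 1.91 FPKM or less. These markers move with the groups compared here, and their part in the changes of proteasome genes was not tested. In bulk RNA, fewer cells of a type and less RNA per cell cannot be told apart.

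Results showed that most proteasome genes were lower in sh-LDB1, by small amounts, while the immunoproteasome genes PSMB9 and PSMB10 rose. Levels were compared as log2(FPKM + 1) with limma over the 13300 genes whose mean reached 1 FPKM, with Benjamini-Hochberg adjustment. The threshold asked for an adjusted p below 0.05 together with a fold change of more than 2 or less than 0.5, taken on this scale, which understates the change of genes with low levels. Among the 43 tested members, 2 were past the threshold upward, PSMB9 and PSMB10, or 4.65% against 9.5% of all genes tested. The members past the threshold downward were PSMD5, PSMG1, PSME3 and PSMB5, which makes 4 or 9.3%, against 10.3% of all genes tested. The share of large changes was thus near or under the background in both directions.

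With no demand on the fold change, 31 members (72.1%) were lower at an adjusted p below 0.05, against 37.4% of all genes tested. In the other direction, 6 members (14%) were higher, against 29.9% of all genes. The remaining 6 members, PSMB6, PSMC1, PSMC5, PSMD7, PSMD9 and PSMD10, did not pass the test. Both sh-LDB1 libraries lay under both sh-NC libraries for 34 members (79.1%, against 46.3% of all genes tested) and over both for 7 members (16.3%, against 38.3%). The median log2 fold change was -0.40 over the tested members and -0.08 over all genes tested. Each library was also scaled to one fixed sum, which divided its FPKM by 0.281 to 0.320 before 1 was added. All values were thereby larger and the added 1 weighed less, and this part was not separated from the scaling itself. The median of all genes moved by 0.15 upward, and 8 members were then higher and 24 lower at an adjusted p below 0.05. PSMA3, PSMC3, PSMD4, PSMD12, PSMD13, PSMF1 and PSMG2 no longer passed the test there, and PSMB6 and PSMD7 were higher. Under that scaling 3 members were past the threshold upward and 2 downward, in place of 2 and 4, and with a median of ratios over expressed genes there were 3 and 3.

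**Figure D1:**
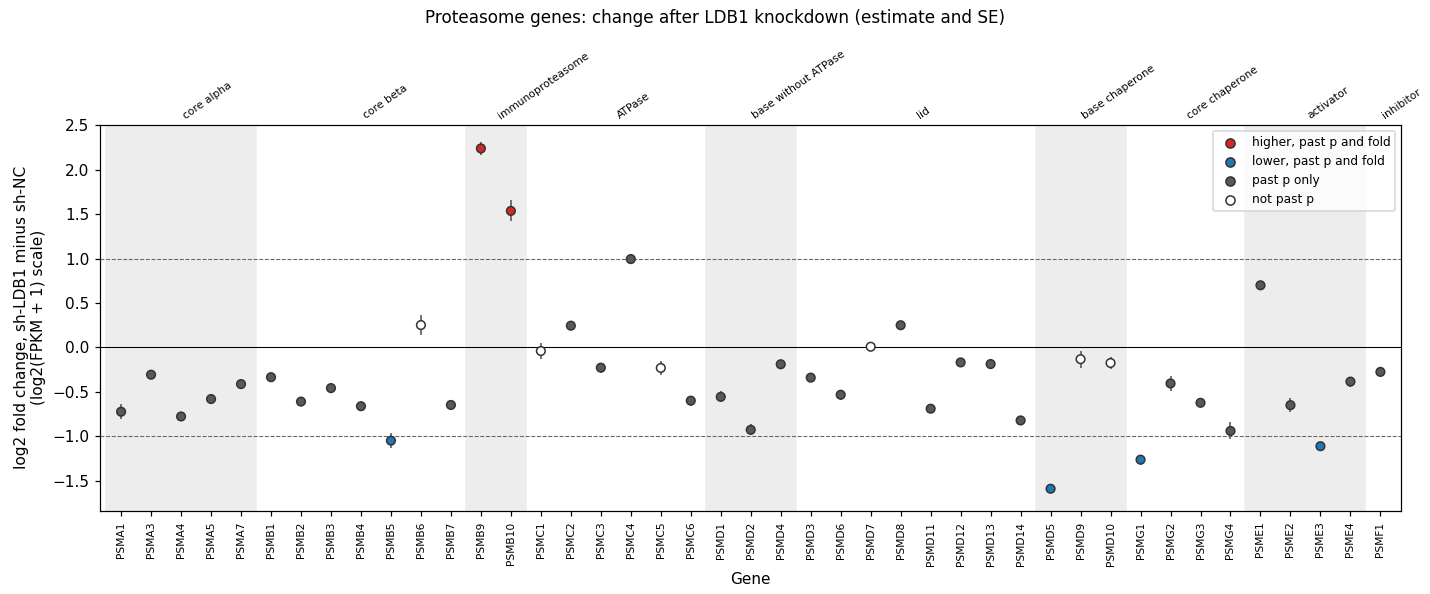
Log2 fold change on the log2(FPKM + 1) scale, sh-LDB1 minus sh-NC, with its standard error for each of the 43 tested proteasome genes, grouped by role. The immunoproteasome genes PSMB9 (2.24) and PSMB10 (1.54) lie highest, most others lie under 0, and PSMD5 (-1.59) lies lowest.

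Summed over the 47 genes, the proteasome took 0.664% and 0.648% of all FPKM in sh-NC and 0.594% in each sh-LDB1 library. The group means were thus 0.656% and 0.594%, and the groups did not overlap. The sums by role did not move alike. Core beta genes summed to 781.0 ± 18.3 FPKM (SD, n = 2) in the controls and 551.9 ± 15.9 FPKM after knockdown, which is 70.7% of the control. Core alpha genes went from 208.5 ± 5.65 to 149.9 ± 0.486 FPKM, or 71.9%. The non-ATPase subunits of the base went from 196.3 ± 6.62 to 137.0 ± 2.67 FPKM, or 69.8%. These sums of the core and of the base scaffold stood at close to the same share of their control level. Lid genes kept 89.0% of the control sum, with 286.9 ± 0.604 FPKM in the controls and 255.2 ± 2.03 FPKM after knockdown. The ATPase sum was higher in sh-LDB1, with 239.4 ± 8.06 FPKM in the controls and 298.7 ± 2.58 FPKM after knockdown, and the rise of PSMC4 alone was larger than that of the sum. The lowest remaining shares were those of the assembly chaperones of the core (57.3%) and of the base (57.5%), the latter through PSMD5 (31.8%), since PSMD10 was at 88.4% and PSMD9 at 86.8%.

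**Figure D2:**
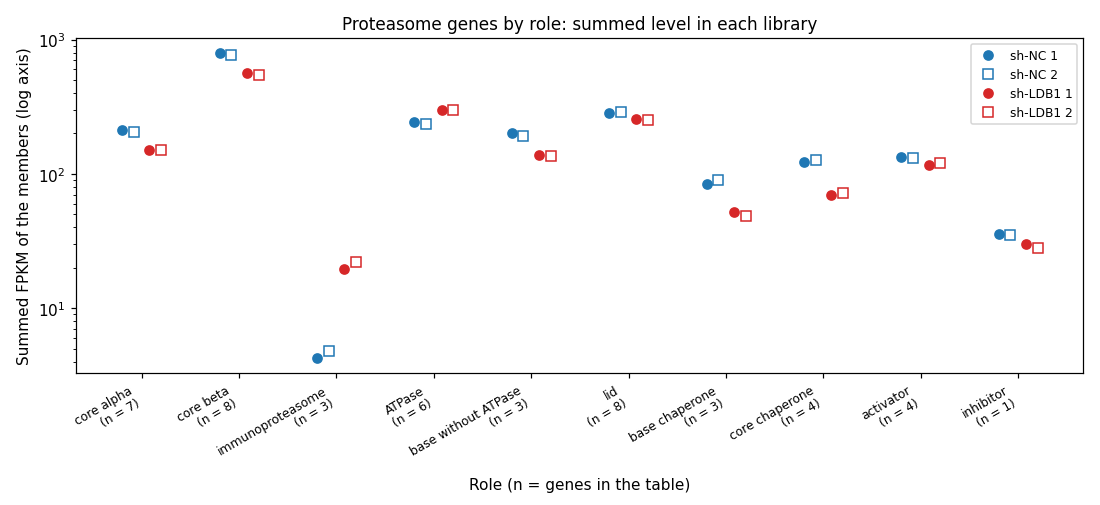
Summed FPKM of each role in each library, with 2 sh-NC and 2 sh-LDB1 libraries and a logarithmic axis. The core beta sum is highest in every library (540.6 to 793.9 FPKM), and the immunoproteasome sum is lowest (4.29 to 22.1 FPKM) and is one of 2 that are higher in sh-LDB1, with the ATPases.

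The promoters of the 6 members past the threshold and of the activator pair PSME1 and PSME2 are shown so that the sequence next to each start can be read against its change. Each is the RefSeq promoter on GRCh38.p14, from 250 bases before the start to 50 bases after it, 5′ to 3′ on the strand of the gene. Capitals mark matches, on either strand, to TGACNNNGC, the antioxidant response element bound by factors of the NFE2L family, to GAAA, any 2 bases and GAAA again, the interferon-stimulated response element, and to the E-box CACGTG. PSMB5 has 2 promoters in the table, and neither holds a match. The PSMB9 promoter lies at chr6:32853942-32854241 on the plus strand, within the longer gene model of GENCODE, and that of PSMB10 at chr16:67936801-67937100 on the minus strand. The PSME1 promoter lies at chr14:24135944-24136243 on the plus strand and that of PSME2 at chr14:24146561-24146860 on the minus strand. The PSMD5 promoter lies at chr9:120842873-120843172 and that of PSMG1 at chr21:39183402-39183701, both on the minus strand. The promoter of PSME3 lies at chr17:42833147-42833446 on the plus strand, and those of PSMB5 at chr14:23035171-23035470 and chr14:23034851-23035150 on the minus strand.
PSMB9: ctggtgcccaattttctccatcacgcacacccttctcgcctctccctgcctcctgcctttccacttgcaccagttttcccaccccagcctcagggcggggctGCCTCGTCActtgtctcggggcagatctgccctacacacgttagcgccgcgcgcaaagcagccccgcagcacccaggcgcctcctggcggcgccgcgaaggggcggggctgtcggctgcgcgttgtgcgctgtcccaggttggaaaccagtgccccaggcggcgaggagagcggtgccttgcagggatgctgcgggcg
PSMB10: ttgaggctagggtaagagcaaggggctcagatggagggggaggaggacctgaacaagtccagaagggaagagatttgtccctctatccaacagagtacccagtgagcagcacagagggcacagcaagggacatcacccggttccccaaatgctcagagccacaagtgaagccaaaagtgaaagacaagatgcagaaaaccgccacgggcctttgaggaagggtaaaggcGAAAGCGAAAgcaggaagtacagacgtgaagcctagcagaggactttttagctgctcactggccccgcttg
PSME1: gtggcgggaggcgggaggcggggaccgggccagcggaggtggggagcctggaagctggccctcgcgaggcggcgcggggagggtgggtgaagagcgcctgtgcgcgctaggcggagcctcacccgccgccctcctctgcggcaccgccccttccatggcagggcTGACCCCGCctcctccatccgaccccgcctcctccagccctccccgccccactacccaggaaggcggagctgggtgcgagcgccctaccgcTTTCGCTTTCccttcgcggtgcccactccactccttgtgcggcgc
PSME2: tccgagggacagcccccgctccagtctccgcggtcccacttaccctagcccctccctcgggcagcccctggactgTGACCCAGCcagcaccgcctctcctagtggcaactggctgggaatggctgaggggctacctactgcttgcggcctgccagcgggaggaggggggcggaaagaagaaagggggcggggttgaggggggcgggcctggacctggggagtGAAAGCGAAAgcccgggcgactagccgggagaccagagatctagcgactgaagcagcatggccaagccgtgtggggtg
PSMD5: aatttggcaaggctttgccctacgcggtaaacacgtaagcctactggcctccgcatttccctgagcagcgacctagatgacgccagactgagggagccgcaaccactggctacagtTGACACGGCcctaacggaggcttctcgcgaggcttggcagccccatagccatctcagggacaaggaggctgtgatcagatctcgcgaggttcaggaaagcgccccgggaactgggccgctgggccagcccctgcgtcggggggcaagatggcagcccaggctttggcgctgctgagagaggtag
PSMG1: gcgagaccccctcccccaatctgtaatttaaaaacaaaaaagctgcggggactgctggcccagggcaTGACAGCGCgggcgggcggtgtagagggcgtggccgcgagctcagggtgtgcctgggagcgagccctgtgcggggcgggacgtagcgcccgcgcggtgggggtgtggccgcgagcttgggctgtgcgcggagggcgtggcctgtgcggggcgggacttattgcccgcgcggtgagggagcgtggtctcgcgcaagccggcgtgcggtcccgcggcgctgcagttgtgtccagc
PSME3: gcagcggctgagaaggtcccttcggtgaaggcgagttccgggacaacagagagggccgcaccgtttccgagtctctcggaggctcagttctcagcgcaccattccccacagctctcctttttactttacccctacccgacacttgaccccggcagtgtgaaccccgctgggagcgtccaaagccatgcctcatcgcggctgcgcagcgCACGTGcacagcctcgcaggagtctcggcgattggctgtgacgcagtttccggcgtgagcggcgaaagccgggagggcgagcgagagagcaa
PSMB5, upstream start: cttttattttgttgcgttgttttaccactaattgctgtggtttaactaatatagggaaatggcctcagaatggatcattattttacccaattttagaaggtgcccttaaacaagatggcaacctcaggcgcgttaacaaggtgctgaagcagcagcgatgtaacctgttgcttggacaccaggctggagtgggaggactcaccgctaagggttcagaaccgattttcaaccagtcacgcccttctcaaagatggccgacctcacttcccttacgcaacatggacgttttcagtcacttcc
PSMB5, downstream start: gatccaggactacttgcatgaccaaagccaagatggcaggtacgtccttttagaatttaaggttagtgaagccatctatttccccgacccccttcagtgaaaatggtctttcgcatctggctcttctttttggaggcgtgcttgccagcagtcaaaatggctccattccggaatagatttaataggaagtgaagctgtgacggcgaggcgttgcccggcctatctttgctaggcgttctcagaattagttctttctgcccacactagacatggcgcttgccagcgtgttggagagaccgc

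Promoters were found for 41 of the 47 genes, with 50 promoters in all because some genes have several starts. The antioxidant response element was in 15 of these 50 (30%) and in 13.3% of all 34796 promoters. The interferon-stimulated response element was in 7 (14%), against 3.57% of all promoters, and those 7 belong to PSMA4, PSMB4, PSMB8, PSMB10, PSME1, PSME2 and PSMG4. PSMA4, PSME1 and PSME2 carry both motifs, and of these PSME1 rose while PSME2 and PSMA4 fell. The E-box CACGTG was in 3 promoters (6.0%, against 7.20% of all), those of PSMB3, PSMD9 and PSME3. The GATA site AGATAA was in 1 (2.0%, against 10.4%), that of PSMC6. No matches of different motifs overlapped, and a match describes these letters in this window and not a bound site.

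The immunoproteasome genes were the members with the largest rises. PSMB9 (ENSG00000240065, chr6:32844136-32859851 on the plus strand of GRCh38) encodes the subunit that takes the place of PSMB6. Its level was 1.09 and 1.04 FPKM in the controls and reached 8.66 and 8.82 FPKM after knockdown. Both sh-LDB1 libraries were far above both controls, and the replicates were close. The mean rose 8.23-fold, from 1.06 ± 0.0345 to 8.74 ± 0.116 FPKM (SD, n = 2), and the log2 fold change on the FPKM + 1 scale was 2.24 (SE 0.0693, limma adjusted p = 9.57e-05). About 54, 47, 426 and 410 reads lie behind these values, in the same order of libraries.

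PSMB10 (ENSG00000205220, chr16:67934506-67936864, minus strand) encodes the subunit that takes the place of PSMB7. It was at 3.20 and 3.77 FPKM in the controls and at 10.9 and 13.2 FPKM after knockdown. The groups did not overlap, although the sh-LDB1 libraries differed from each other more than for PSMB9. The mean rose 3.45-fold, from 3.49 ± 0.402 to 12.04 ± 1.64 FPKM, with a log2 fold change of 1.54 (SE 0.119, limma adjusted p = 0.000572). An unnamed gene model on the same strand shares 56.1% of its mRNA and was itself at 0.227 to 0.516 FPKM, and how such shared reads were counted is not given in the sources used here.

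PSMB8, which takes the place of PSMB5, was hardly detected. It was at 0 and 0.0226 FPKM in the controls and at 0.167 and 0.0662 FPKM after knockdown, from about 0, 1, 8 and 3 reads, and was too low to be tested. The ratio of 11 reads in sh-LDB1 to 1 read in sh-NC, scaled to depth, was 10.9 with a 95% exact interval of 1.59 to 470.1, which covers counting error only. Thus PSMB8 and PSMB9, which lie next to each other on chromosome 6 (PSMB8 at chr6:32840717-32844679, minus strand), differed widely in level in the same libraries.

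To set the immunoproteasome subunits against the subunits they replace, each level was divided by that of its constitutive partner in the same library. PSMB9 was at 1.64% and 1.97% of PSMB6 in sh-NC and at 12.2% and 12.6% in sh-LDB1. PSMB10 was at 2.66% and 3.22% of PSMB7 in sh-NC and at 14.2% and 17.7% in sh-LDB1. In every library the constitutive subunit thus had the higher FPKM of the pair. These percentages rest on unlike gene lengths for PSMB9 and PSMB6, recovered as 3072 and 1448 bases, while PSMB10 and PSMB7 were at 1853 and 1787 bases. In reads, PSMB9 had about 426 and 410 in sh-LDB1, beside about 1648 and 1534 for PSMB6. The ratio was 6.89-fold higher in sh-LDB1 for PSMB9/PSMB6 (log2 difference 2.78) and 5.43-fold higher for PSMB10/PSMB7 (log2 difference 2.44). The two-sided exact permutation p was 0.333 for both pairs (0.333 after Benjamini-Hochberg adjustment), which is the smallest that 2 libraries against 2 can give, so the permutation test cannot separate them. PSMB8 was at 0 and 0.0273% of PSMB5 in sh-NC and at 0.386% and 0.156% in sh-LDB1, and the 0 left no ratio on a log scale to test.

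**Figure D3:**
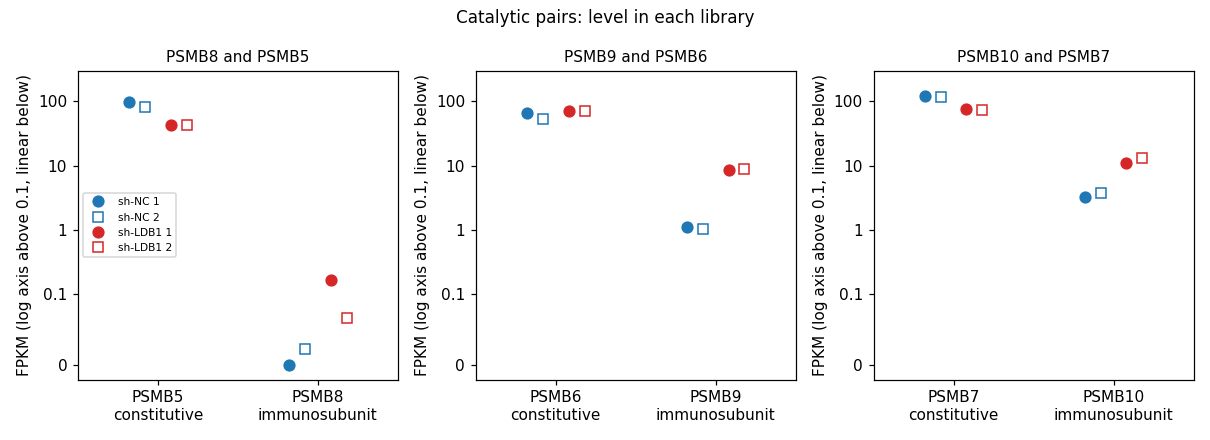
FPKM of each immunoproteasome subunit and its constitutive partner in each library, for PSMB8 and PSMB5, PSMB9 and PSMB6, and PSMB10 and PSMB7. The axis is logarithmic above its lowest part and linear below. The sh-LDB1 points of PSMB9 (8.66 and 8.82 FPKM) and PSMB10 (10.9 and 13.2 FPKM) lie above the sh-NC points. All PSMB8 points are at 0.167 FPKM or less.

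Genes known to act on or with the immunoproteasome did not all move with it. IRF1, an interferon-induced activator of PSMB9, was at 1.57 and 1.77 FPKM in the controls and at 3.76 and 4.10 FPKM after knockdown, a log2 fold change of 0.89 (SE 0.0926, limma adjusted p = 0.00138). TAP1, the peptide transporter gene that lies beside PSMB9, was at 1.90 and 1.69 FPKM in the controls and at 3.51 and 4.21 FPKM after knockdown (log2 fold change 0.79, limma adjusted p = 0.00346). Both rose without reaching the fold threshold on this scale. Its partner TAP2 was at 4.99 and 5.79 FPKM in the controls and at 5.13 and 4.97 FPKM after knockdown (limma adjusted p = 0.464), and these groups overlap. NLRC5, an activator of antigen presentation genes, was at 0.0109 FPKM or less in every library.

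Among the constitutive beta subunits, 6 of 7 tested genes fell. PSMB5 (ENSG00000100804, chr14:23016543-23035230, minus strand) carries the chymotrypsin-like site, the target of bortezomib. It was at 96.3 and 82.9 FPKM in the controls and at 43.1 and 42.3 FPKM after knockdown. The control libraries differed from each other, but both were well above both sh-LDB1 libraries. The mean was 89.6 ± 9.43 FPKM in the controls and 42.7 ± 0.591 FPKM after knockdown, and the log2 fold change was -1.05 (SE 0.0811, limma adjusted p = 0.000577). It is close to the fold threshold: without sh-NC replicate 1 it was -0.94, and with a fixed sum per library -0.89.

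PSMB7, which carries the trypsin-like site, was at 120.6 and 117.0 FPKM in the controls and at 76.4 and 74.6 FPKM after knockdown, a log2 fold change of -0.65 (SE 0.0411, limma adjusted p = 0.000345). PSMB6, which carries the caspase-like site, was at 66.2 and 52.6 FPKM in the controls and at 71.0 and 70.0 FPKM after knockdown, a log2 fold change of 0.25 (SE 0.116, limma adjusted p = 0.118). The cutting subunits therefore split: PSMB5 and PSMB7 fell, and PSMB6 did not pass the test, with a wide gap between its control libraries, though it was higher with a fixed sum per library (0.43, limma adjusted p = 0.0299). The structural subunits PSMB1, PSMB2, PSMB3 and PSMB4 fell with log2 fold changes between -0.66 (PSMB4) and -0.33 (PSMB1). PSMB3 had the highest FPKM of all proteasome genes, at 210.1 and 213.7 in the controls and at 160.4 and 148.0 after knockdown (log2 fold change -0.46). PSMB11, the thymus subunit, was at 0.0879 FPKM in 1 sh-NC library and at 0 in the other 3.

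**Figure D4:**
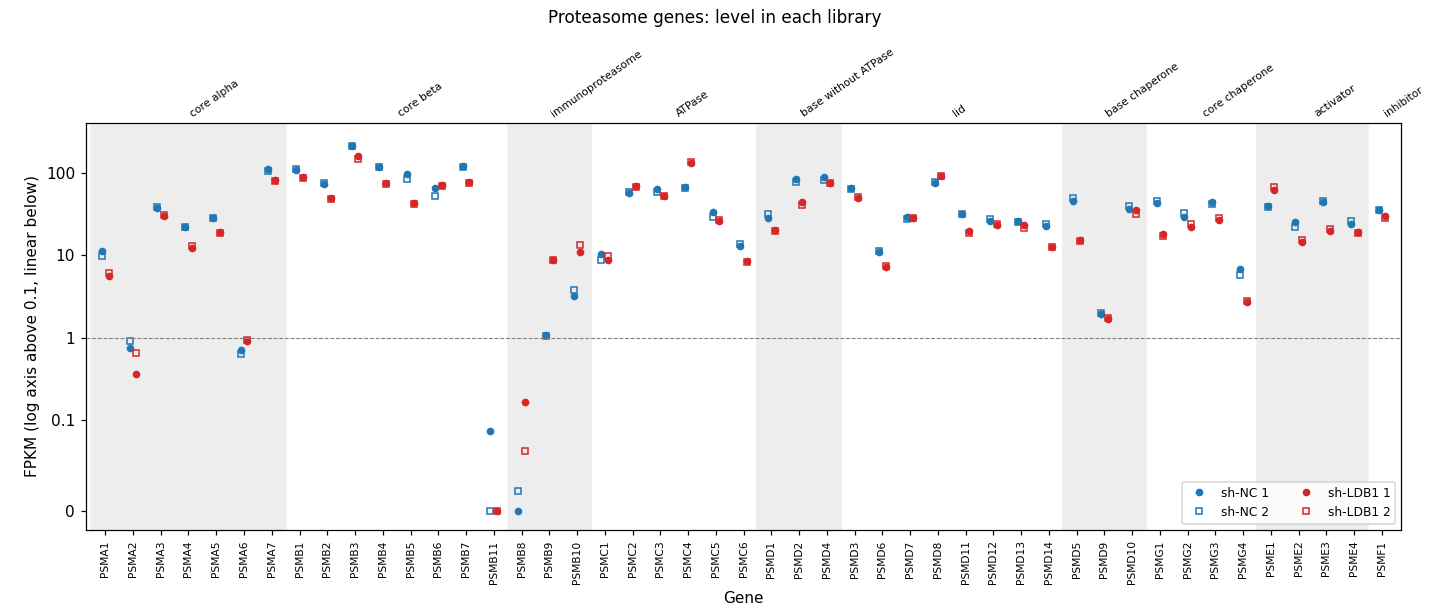
FPKM of each proteasome gene in the 2 sh-NC and 2 sh-LDB1 libraries, ordered by role. The axis is logarithmic above its lowest part and linear below. The core beta gene PSMB3 sits highest, at 148.0 to 213.7 FPKM, while PSMB11 of the same role is at 0.0879 FPKM or less. The immunoproteasome genes sit low in all 4 libraries and higher in sh-LDB1.

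The alpha subunits, which form the outer rings and gate the entry to the core, fell together in all 5 that could be tested. PSMA4 fell most, from 22.2 and 22.1 FPKM in the controls to 12.2 and 12.9 FPKM after knockdown (log2 fold change -0.78, SE 0.0485, limma adjusted p = 0.000332). PSMA1, PSMA5, PSMA7 and PSMA3 followed with log2 fold changes of -0.72, -0.58, -0.41 and -0.31, the last of which (PSMA3) was at -0.14 with a fixed sum per library (limma adjusted p = 0.0635). PSMA7 had the highest FPKM of them, at 112.5 and 104.3 in the controls and at 82.5 and 79.8 after knockdown. PSMA2 and PSMA6 had a mean under 1 FPKM and were not tested. PSMA2 was at 0.753, 0.915, 0.363 and 0.644 FPKM and PSMA6 at 0.703, 0.636, 0.902 and 0.935 FPKM, with the sh-NC libraries first, far under the other alpha genes although every core particle holds both. Unnamed gene models on the same strand share 100% of the mRNA of PSMA2 and 81.4% of that of PSMA6, and 67.0% of that of PSMA1. The models over PSMA1 and PSMA2 have no entry among the deposited values, and whether they were counted is not known. The model over PSMA6 was itself at 0.0527 FPKM or less. The levels of these 3 genes are therefore uncertain, and the part of the counting in them was not tested. PSMA8 was not analysed here.

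The 6 ATPases of the base did not move as one. PSMC4 (ENSG00000013275, chr19:39971165-39981764, plus strand) was at 68.1 and 65.7 FPKM in the controls and at 132.6 and 136.0 FPKM after knockdown. Its replicates were close and the groups far apart. The mean rose 2.01-fold, from 66.9 ± 1.70 to 134.3 ± 2.40 FPKM, and the log2 fold change of 0.99 (SE 0.0423, limma adjusted p = 0.00015) lay just under the fold threshold. It was past the threshold without sh-NC replicate 1, without sh-LDB1 replicate 1 and with a fixed sum per library (1.17). PSMC2 rose less, from 57.4 and 58.1 FPKM to 69.3 and 67.9 FPKM (log2 fold change 0.24, limma adjusted p = 0.0052).

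PSMC6 had the largest fall of the ATPases, from 12.8 and 13.7 FPKM in the controls to 8.47 and 8.33 FPKM after knockdown (log2 fold change -0.60, SE 0.058, limma adjusted p = 0.00111). PSMC3 fell by 0.23 on the log2 scale (limma adjusted p = 0.0196), but was at -0.058 with a fixed sum per library (limma adjusted p = 0.405). PSMC5 was at 33.3 and 29.1 FPKM in the controls and at 25.8 and 27.1 FPKM after knockdown, and missed the threshold (limma adjusted p = 0.0541). Of its mRNA, 13.7% lies opposite FTSJ3, which was at 16.2 to 17.6 FPKM. PSMC1 was at 10.3, 8.81, 8.79 and 9.70 FPKM, with the sh-NC libraries first and overlapping groups. For PSMC1, 83.2% of the mRNA lies opposite NRDE2, which was at 0.936 to 1.15 FPKM. The levels of PSMC5 and PSMC1 are therefore uncertain without strand. Although one copy of each ATPase sits in the ring, their levels spanned from 8.33 to 136.0 FPKM. The gene lengths recovered for them ran from 2276 bases (PSMC3) to 7482 bases (PSMC6), so this span is not one of mRNA copies alone.

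The scaffolds and the ubiquitin receptor of the base all fell, the receptor PSMD4 only without the scaling to a fixed sum. PSMD2, a scaffold that docks ubiquitin-like domains, was at 83.3 and 78.2 FPKM in the controls and at 43.7 and 40.4 FPKM after knockdown, which left 52.0% of the control mean (log2 fold change -0.93, SE 0.0606, limma adjusted p = 0.000373). PSMD1, the other large scaffold, fell by 0.56 on the log2 scale, and PSMD4, a ubiquitin receptor, fell by 0.19. With a fixed sum per library PSMD4 was at -0.018 (limma adjusted p = 0.79).

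In the lid, 6 of 8 genes fell, 1 rose and 1 did not pass the test. PSMD14, the deubiquitinase that clips ubiquitin chains from substrates, was at 22.4 and 23.8 FPKM in the controls and at 12.6 and 12.7 FPKM after knockdown (log2 fold change -0.82, SE 0.0519, limma adjusted p = 0.000341). PSMD7, with which it forms a pair in the lid, was at 28.7 and 27.4 FPKM in the controls and at 28.5 and 27.9 FPKM after knockdown (log2 fold change 0.01, limma adjusted p = 0.886). These partners thus moved differently in value, although the difference itself was not tested, and 51.6% of the mRNA of PSMD7 lies opposite a lncRNA gene. PSMD8 was the lid gene that rose, from 75.7 and 77.1 FPKM to 91.8 and 90.2 FPKM (log2 fold change 0.25, SE 0.0386, limma adjusted p = 0.00473). The other lid genes fell, with log2 fold changes of -0.69 for PSMD11, -0.53 for PSMD6, -0.34 for PSMD3, -0.19 for PSMD13 and -0.17 for PSMD12. With a fixed sum per library PSMD13 and PSMD12 were at -0.021 and -0.0018 and did not pass the test, which leaves 4 lid genes lower, while PSMD7 was at 0.18 (limma adjusted p = 0.0267).

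Assembly chaperones held the largest falls. PSMD5 (ENSG00000095261, chr9:120815496-120842951, minus strand), a chaperone that binds the ATPase ring before the base is complete, was at 46.0 and 49.0 FPKM in the controls and at 15.3 and 14.9 FPKM after knockdown. Both sh-LDB1 libraries were far under both controls. The mean went from 47.5 ± 2.12 to 15.1 ± 0.271 FPKM, 31.8% of the control, with a log2 fold change of -1.59 (SE 0.0512, limma adjusted p = 0.000101). The other base chaperones did not pass the test: PSMD10, also called gankyrin, was at 36.5 and 39.1 FPKM in the controls and at 35.1 and 31.7 FPKM after knockdown, and PSMD9 was at 1.69 to 1.98 FPKM in the 4 libraries.

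All 4 chaperones of core assembly fell. PSMG1 (ENSG00000183527, chr21:39174769-39183488, minus strand), which pairs with PSMG2 to seed the alpha ring, was at 42.6 and 45.5 FPKM in the controls and at 18.3 and 17.3 FPKM after knockdown. The mean was 44.1 ± 2.08 FPKM in the controls and 17.8 ± 0.690 FPKM after knockdown, or 40.3% of the control, and the log2 fold change was -1.26 (SE 0.0566, limma adjusted p = 0.000158). Its partner PSMG2 fell by 0.40 on the log2 scale, from 28.7 and 32.6 FPKM to 21.9 and 23.9 FPKM, but was at -0.24 with a fixed sum per library (limma adjusted p = 0.0653). The members of the second pair, PSMG3 and PSMG4, fell by 0.62 and 0.94. PSMG4 had the lowest FPKM of the family, at 6.77 and 5.70 in the controls and at 2.72 and 2.80 after knockdown, or 44.3% of the control mean. Its recovered gene length was 10418 bases, in a family that ran from 1960 (PSMG3) to 13424 bases (PSMG2). Without sh-NC replicate 2 the log2 fold change of PSMG4 was -1.05. POMP, a core chaperone outside the PSM names, was at 106.1 and 102.7 FPKM in the controls and at 88.2 and 84.7 FPKM after knockdown (log2 fold change -0.27, limma adjusted p = 0.0058).

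Of the activators, 1 rose and 3 fell. PSME3 (ENSG00000131467, chr17:42824385-42843760, plus strand), the nuclear activator that works without ubiquitin, was at 44.7 and 44.9 FPKM in the controls and at 19.9 and 20.5 FPKM after knockdown. The replicates were nearly equal within each group. The mean fell to 45.1% of the control, from 44.8 ± 0.165 to 20.2 ± 0.455 FPKM, with a log2 fold change of -1.11 (SE 0.042, limma adjusted p = 0.000121). With a fixed sum per library it was -0.97 and no longer past the fold threshold.

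PSME1 and PSME2 form one mixed ring, the interferon-induced activator, and lie near each other on chromosome 14. PSME1 was at 40.0 and 38.5 FPKM in the controls and at 62.3 and 66.3 FPKM after knockdown, a log2 fold change of 0.70 (SE 0.0514, limma adjusted p = 0.0005). PSME2 was at 25.4 and 22.3 FPKM in the controls and at 14.4 and 15.3 FPKM after knockdown, a log2 fold change of -0.65 (SE 0.079, limma adjusted p = 0.00222). The partners thus moved in opposite directions, with no overlap between the groups for either gene. PSME4, an activator linked to histone degradation, fell by 0.38 on the log2 scale, and PSMF1, an inhibitor of the core in vitro, fell by 0.27. PSMF1 was at -0.11 with a fixed sum per library (limma adjusted p = 0.116).

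Genes outside the particle that supply, regulate or feed it were followed as a list of 36, all of them tested. At an adjusted p below 0.05, 7 were higher (19.4%, against 29.9% of all genes tested), 17 were lower (47.2%, against 37.4%) and 12 did not pass, and the median log2 fold change was -0.06, near that of all genes. Past the fold threshold downward were 3 of them (8.33%, against 10.3% of all genes tested), ECPAS, FAF1 and NGLY1, and 1 was past it upward (2.78%, against 9.5%). ECPAS, a scaffold that binds the proteasome, was at 27.1 and 27.7 FPKM in the controls and at 8.05 and 8.10 FPKM after knockdown (log2 fold change -1.65, limma adjusted p = 8.31e-05). Both knockdown libraries were far under both controls, and no other gene of the list fell as much. FAF1, a cofactor of the unfoldase VCP, fell by 1.14 and NGLY1, the enzyme that removes sugars from NFE2L1, fell by 1.02 on the log2 scale.

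NFE2L1, the transcription factor known for restoring proteasome genes when the proteasome is inhibited, was at 24.2 and 23.0 FPKM in the controls and at 27.4 and 25.6 FPKM after knockdown (log2 fold change 0.16, limma adjusted p = 0.06). Its relative NFE2L2, the factor of the oxidative stress response, rose from 16.8 and 17.2 FPKM to 29.4 and 31.7 FPKM (log2 fold change 0.81, limma adjusted p = 0.000407). ADRM1, a ubiquitin receptor of the base, rose from 28.6 and 23.7 FPKM to 36.6 and 40.4 FPKM (log2 fold change 0.54, limma adjusted p = 0.0105), while the base subunits PSMD1, PSMD2 and PSMD4 fell. MYC was at 159.1 and 160.9 FPKM in the controls and at 27.3 and 28.1 FPKM after knockdown (log2 fold change -2.49, limma adjusted p = 6.77e-05).

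**Figure D5:**
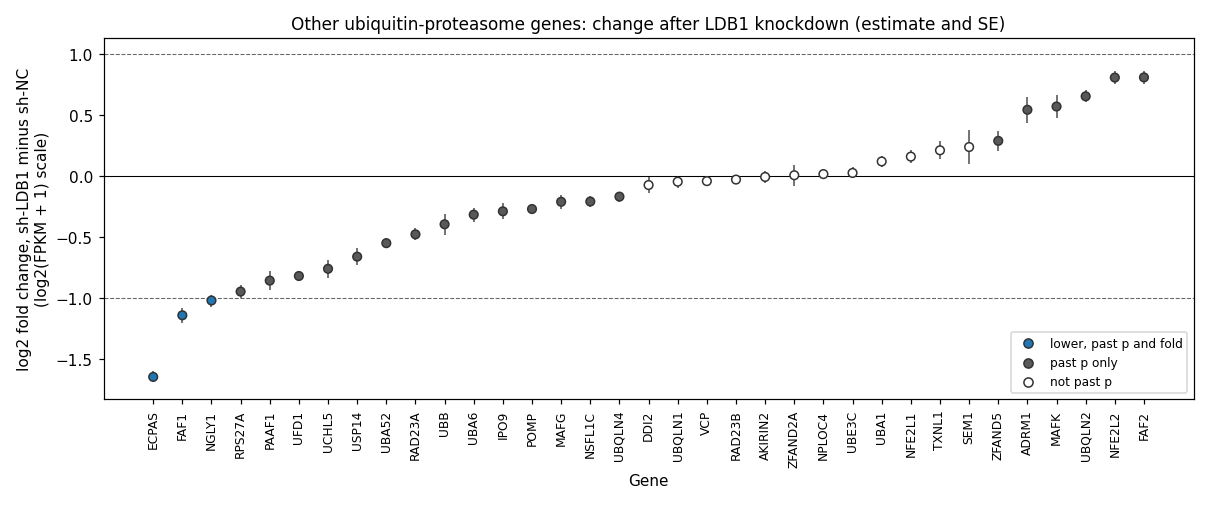
Log2 fold change on the log2(FPKM + 1) scale, sh-LDB1 minus sh-NC, on the vertical axis, with its standard error, for genes of the ubiquitin-proteasome list in order of their change. ECPAS (-1.65) is lowest at the left end, followed by FAF1 (-1.14) and NGLY1 (-1.02), and NFE2L2 (0.81) is among the highest.

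Copies of proteasome genes could take or give reads. The table held 11 entries named as PSM pseudogenes, and 2 of them reached 1 FPKM in any library. PSMC1P1 was the highest, at 1.56 to 2.39 FPKM, beside 8.79 to 10.3 FPKM for PSMC1. PSMA6P1, at 0.624 to 1.37 FPKM, overlapped the 0.636 to 0.935 FPKM of PSMA6 itself.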

How the data were processed

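The cells are human and were sequenced as 4 bulk RNA libraries (2 sh-NC and 2 sh-LDB1), grouped by their titles. Reads were filtered by the authors and aligned to hg38 with HISAT2 2.0.5 (per the submitters' processing notes), and the authors deposited FPKM per gene and library. For their own calls the authors used DESeq2. The counting tool, annotation and use of strand are not given in the sources used here. In each of the 4 libraries the FPKM stood at a median of 1.0083 times the geometric mean of the gene, so the values had been scaled by a median of ratios before deposit, which affects every fold change. Reads were recovered from the steps of the FPKM values. Of the values under 100 reads in genes with a single transcript, 87.1% to 87.4% came out whole within 0.01, and member reads rest on fitted gene lengths.

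Genes whose mean reached 1 FPKM were tested on log2(FPKM + 1) with limma 3.58.1 (R 4.3.3, eBayes with a trend, no block) and Benjamini-Hochberg adjustment. Pair ratios used an exact permutation test. Coordinates and overlaps came from GENCODE release 44 on GRCh38 (28193 of 28412 genes matched), and promoters from RefSeq. Python 3.11.15 and matplotlib 3.10.9 drew the figures. The replicates within sh-NC and within sh-LDB1 differed by more than counting noise (chi-square per gene 4.93 and 2.45).

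The members, roles, pathway list, markers and motifs were chosen with earlier results of these data known. Named with full statistics are the members past the threshold, the subunits of the catalytic pairs and, in each role, the member with the largest rise and fall. Of the pathway list, the genes past the threshold and NFE2L1, NFE2L2, POMP and ADRM1 are named, except for a result that is not reported here and is not drawn in the plot of that list. PSMB8/PSMB5 could not be tested as planned, because one library was at 0. Alternatives were other pseudocounts, filters, scalings, a replicate block, other variance models, limma's treat, each library left out and, chosen after seeing the data, voom on the approximate reads.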

Additional observations from a re-analysis of the deposited data

How the results depend on the processing

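Of 556 values of single members under 13 alternatives, 535 kept their direction and side of the threshold, 4 lost the call, 11 gained it and 6 changed sign. The changes of sign were PSMC1 and PSMD7, neither of which passed the test: PSMC1 was 0.13 with a fixed sum per library and 0.051 with a median of ratios over expressed genes, and with 1 library left out PSMC1 ranged from -0.14 to 0.062 and PSMD7 from -0.024 to 0.040. Members past the threshold upward were 1 with a mean of at least 5 FPKM, since PSMB9 is then not tested, and 6 with no fold threshold. Those past it downward were 2 with a fixed sum per library and 2 with limma's treat, where PSMB5 (-0.89 with the fixed sum) and PSME3 (-0.97) were lost, and 31 with no fold threshold. Leaving out 1 library gave 2 to 3 upward and 3 to 5 downward: PSMB5 was lost without sh-NC replicate 1, PSMC4 was gained without that library or without sh-LDB1 replicate 1, and PSMG4 was gained without sh-NC replicate 2. The library left alone in its group was assumed to vary like the other group. PSMC4 was also gained with a fixed sum (1.17), with the median of ratios, where PSMB5 was lost, and with pseudocounts of 0.1 and 0.01 or voom on approximate reads, which also gained PSMG4. The calls of PSMB10, PSMD5 and PSMG1 held under every alternative run, and that of PSMB9 under each one that tested it. Among the pathway genes, the count upward was 3 with a fixed sum and 0 with treat, and the count downward was 1 with treat. The members' share of FPKM without the 10 most abundant genes was 0.766% in sh-NC and 0.704% in sh-LDB1.

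Replicate numbers are shared between the groups, but with 2 pairs and a correlation of deviations of 0.02 they mark only a number. With the replicate block, 2 members were past the threshold upward and 4 downward, the same 6 genes, and 6 were higher and 30 lower at an adjusted p below 0.05. PSMA2, PSMA6, PSMB8 and PSMB11 were kept out of the comparison by the minimum mean of 1 FPKM, and PSMB8 and PSMB11 were at 8 reads or fewer in every library.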
